A study of Mus musculus with 10 samples.

Results

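The liver transcriptome of mice given saline alone was described from 5 of the 10 mice of a study of acute liver injury, without the 5 antibody-treated animals. The 5 mice were males of the C57BL/6N strain, 6 weeks old, injected intraperitoneally with saline, and their livers were collected 6 h later, so they carried an injection and the handling that goes with it but no antibody to CD95, the death receptor also called Fas. Genes were taken as members where every one of the 5 mice had at least 10 expected counts, a minimum that uses levels and no comparison between groups. That rule kept 12617 of the 38922 genes in the files, or 32.4%, and 11871 of them are protein coding. The members held between 99.89% and 99.92% of the counts of each mouse.

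The liver is built mostly of hepatocytes, large cells that make the proteins of blood plasma, store and release glucose, build and burn fat, clear ammonia as urea and detoxify foreign compounds. Kupffer cells (resident macrophages), sinusoidal endothelial cells, stellate cells and bile duct cells make up the rest. Many hepatocyte genes follow feeding, the day-night cycle, growth hormone, interferons and the acute phase response, the rapid change in secreted proteins that follows inflammation. The saline group holds the levels and the spread between animals of all these programmes together.

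The hepatocyte markers were near the top of the ranking. Alb, which encodes albumin, reached 48765, 43798, 44986, 38819 and 42857 FPKM (fragments scaled for transcript length and library size) in mice 1 to 5. Apoa1, the main protein of high-density lipoprotein, stood at 7847 ± 1412 FPKM (mean ± SD, n = 5 here and below), and Ttr, which carries thyroid hormone and retinol-binding protein, at 5290.4 ± 890.0 FPKM. They ranked 1, 13 and 25 of 12617 by mean FPKM. The Y-linked genes Ddx3y, Uty, Kdm5d and Eif2s3y were members, and Xist, the transcript that silences an X chromosome in females, had no more than 10 counts in any mouse as the labelled male sex implies. Libraries held from 25965699 to 62097636 counts.

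The library of mouse 5 stood apart from the others. It was the deepest, mitochondrial transcripts took the largest share of its counts, and it gave the highest value of 31.5% and the lowest value of 31.8% of all members, against 13.1% to 21.6% and 14.0% to 21.7% in the other mice. Pearson correlations of log2 CPM (counts scaled to a common library size by the TMM method of edgeR) across members were 0.958 to 0.975 for pairs with mouse 5 and 0.966 to 0.989 for the other pairs, a description across genes that share libraries. Its deviation also ran with transcript length. Among members of at least 1 FPKM outside the mitochondrial genome, the median log2 deviation of mouse 5 from the mean of the 5 mice was 0.50 for the 196 genes under 500 bases of effective length, 0.09 for the 3016 genes of 1000 to 2000 bases, and -0.20 for the 1973 genes of 4000 bases or more. In the other mice the same medians stayed between -0.17 and 0.14 in every length class. Mice 3 and 1 ran the opposite way to mouse 5. From under 500 bases to 4000 bases or more the median rose from -0.17 to 0.14 in mouse 3 and from -0.17 to 0.08 in mouse 1. Mouse 3 was highest for 4.08% of the shortest class and 40.7% of the longest. The part of length in the results below was not tested, and values without mouse 5 are given where they differ. With 1 group there was nothing to test, so the values below describe the spread between 5 animals, in which biological and technical parts cannot be told apart.

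Abundance was concentrated in few genes. Alb alone took 8.70 ± 0.699% of counts, the 10 genes with most counts 22.5 ± 2.82%, the leading 100 genes 53.2 ± 4.11% and the leading 1000 genes 78.1 ± 2.34%. The number of genes needed to reach 50% of the counts was 96, 94, 81, 74 and 41 in mice 1 to 5, so fewer genes sufficed in mouse 5 than in any other animal. At the other end, 2378 members had a mean below 1 FPKM and held 0.412 ± 0.0518% of counts, while the 82 members at 1000 FPKM or more held 49.1 ± 4.94%. The median member had a mean of 4.59 FPKM and the highest, Alb, 43845.

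**Figure D1:**
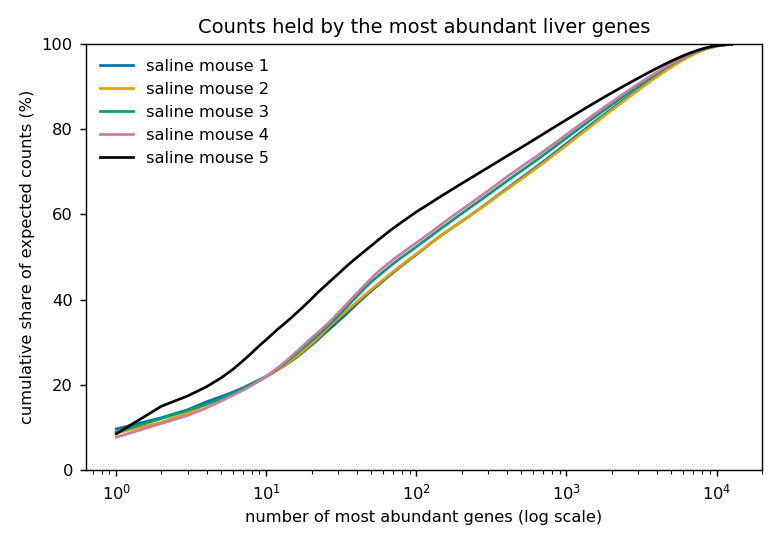
Cumulative share of expected counts (y axis, percent) against the number of most abundant genes, ranked within each mouse (x axis, log scale), with 1 line per saline-injected mouse. The line of mouse 5 lies above the others and reaches 50% at 41 genes, against 74 to 96 genes in the other mice.

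The 25 genes with the highest mean FPKM held 9 mitochondrial transcripts and 4 major urinary proteins, and the other 12 were plasma proteins, apolipoproteins among them, and a fatty acid carrier. After Alb came mt-Co1, a subunit of cytochrome c oxidase, at 24187 ± 10974 FPKM, and 8 more of the 25 were also encoded by the mitochondrial genome. Apoe, the ligand for uptake of lipoprotein remnants, was at 13328 ± 608 FPKM, Apoa2, a second protein of high-density lipoprotein, at 10712 ± 1634 FPKM, and Fabp1, the cytosolic fatty acid carrier of hepatocytes, at 7173 ± 2293 FPKM. Mup10 (16722 ± 6999.8 FPKM) and Mup7 (11445 ± 8899 FPKM) encode major urinary proteins, pheromone carriers that the male liver secretes for excretion in urine. Serpina1e, a homologue of human alpha-1 antitrypsin, stood at 11082 ± 4528 FPKM, Ahsg, the mineral-binding plasma protein fetuin-A, at 6581 ± 844 FPKM, and Trf, the iron carrier transferrin, at 6044 ± 1684 FPKM. The SD was large beside the mean for Mup7, mt-Co1 and Mup10 and small for Apoe and Ahsg. Mouse 5 set much of the spread of the short apolipoprotein transcripts on the CPM scale: without it the excess CV, a measure of spread between mice explained below, was 0.0210 instead of 0.126 for Apoe and 0.100 instead of 0.284 for Apoa2. It was 0.0688 instead of 0.109 for Alb and 0.0186 instead of 0.0395 for Ahsg, and that of Ttr was 0.0722 instead of 0.277.

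When members were sorted into 30 function classes, 1263 genes in the classes took 69.4 ± 3.32% of counts and the 11354 members in no class the rest. The 7 classes of secreted proteins (albumin and carriers, protease inhibitors, major urinary proteins, apolipoproteins, coagulation, complement and acute phase) together held 35.6 ± 2.22% of counts from 160 genes. Albumin and the plasma carriers led with 14.4 ± 1.59%, followed by transcripts of the mitochondrial genome with 11.4 ± 5.92%, protease inhibitors with 6.70 ± 1.16% and major urinary proteins with 5.20 ± 2.58%. By share of summed FPKM, which is per unit of transcript length, the order of the means differed: mitochondrial transcripts took 18.1 ± 7.34% of summed FPKM, albumin and carriers 11.8 ± 2.15%, major urinary proteins 8.70 ± 4.04% and apolipoproteins 6.73 ± 0.516%. That order did not hold in every animal. In mice 1 and 2 albumin and carriers (14.2% and 13.6%) were above mitochondrial transcripts (13.96% and 12.9%), and apolipoproteins (7.18% and 7.38%) above major urinary proteins (4.28% and 4.68%), while mouse 5 had 30.9% in mitochondrial transcripts.

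Classes of metabolism each took a few percent or less of the counts. Cytochromes P450, the oxidases of drug and steroid metabolism, held 2.53 ± 0.498%, with Cyp2e1 (2835 ± 576 FPKM), which oxidizes ethanol and acetaminophen, and Cyp3a11 (2545 ± 840.1 FPKM), a broad drug oxidase, as their most abundant members. Conjugation and ester hydrolysis enzymes held 2.31 ± 0.115%, amino acid catabolism 2.26 ± 0.203%, glycolysis, gluconeogenesis and glycogen 1.57 ± 0.163%, fatty acid oxidation and ketogenesis 1.53 ± 0.229%, and urea cycle and ammonia handling 1.06 ± 0.159%. The 80 cytosolic ribosomal protein genes took 1.11 ± 0.0881% of counts but 2.41 ± 0.293% of summed FPKM, and their transcripts are short. Histones took 0.0805 ± 0.00941%.

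**Figure D2:**
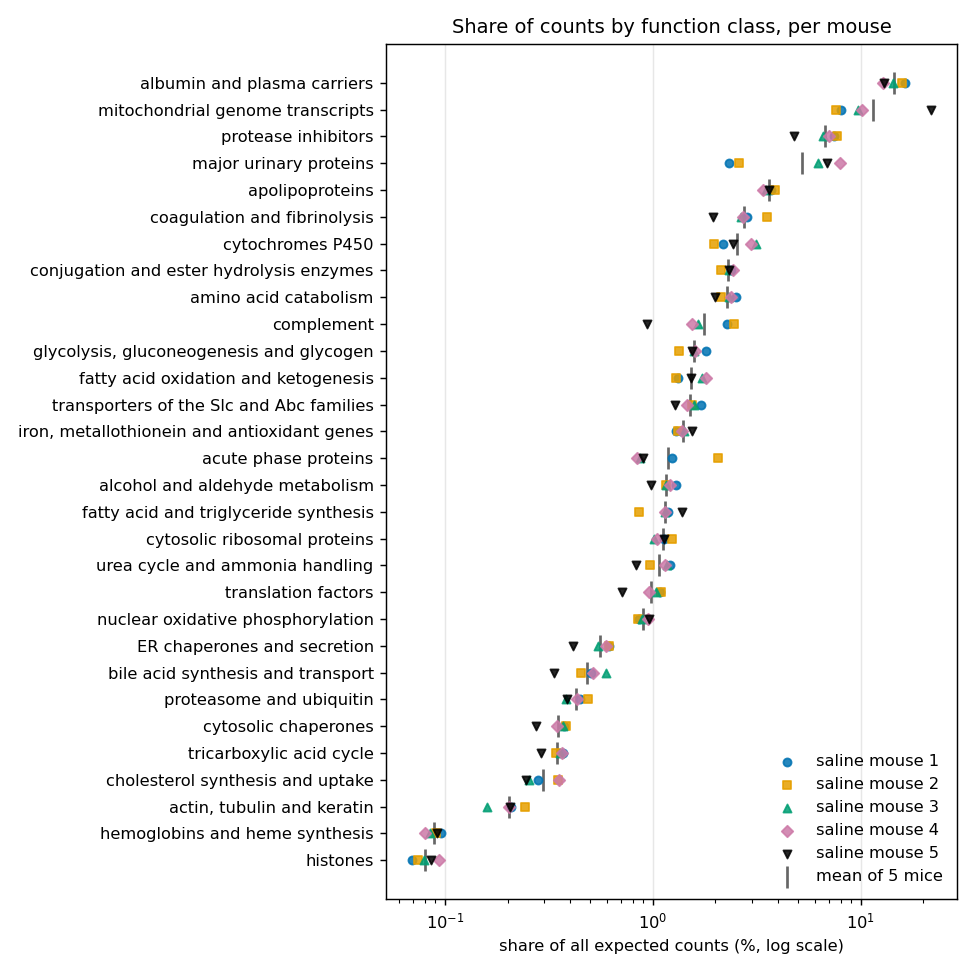
Share of all expected counts (x axis, percent, log scale) taken by members of each of the 30 function classes (y axis) in each saline-injected mouse, with a grey tick at the mean of the 5 mice. Points of a class lie close together for most classes and apart for mitochondrial transcripts, major urinary proteins, complement and acute phase proteins.

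Classes differed in how alike the mice were in their share of counts. The share of apolipoproteins ran only from 3.39% to 3.87%, and that of conjugation and ester hydrolysis enzymes from 2.11% to 2.42%. Apolipoproteins were less alike on the CPM scale, where the class summed to 34067, 34918, 34455, 34669 and 43266 CPM. Their median excess CV was 0.280, above the 0.207 of complement and the 0.164 of all members. Without mouse 5 it was 0.127 for apolipoproteins and 0.172 for complement. The share of complement varied more, at 2.27, 2.45, 1.65, 1.54 and 0.940% of counts in mice 1 to 5, lowest in mouse 5. C3, the central complement protein, followed that order with 9589, 10127, 7022, 6229 and 3735 CPM. Mbl2, a lectin that starts complement activation on microbial sugars, was nearly level at 371, 359, 382, 339 and 365 CPM, with an excess CV of 0.0424, or 0.0247 without mouse 4. Of the 27 complement genes 15 were highest in mouse 2 and 15 lowest in mouse 5, beside 19.2% and 31.8% of all members.

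Fibrinogen chains were steadier than complement. Fgb stood at 4653, 6416, 5040.1, 5739.8 and 4820.1 CPM and Fgg at 3602, 4974, 4154, 4658 and 3577 CPM, each highest in mouse 2. Mouse 2 was highest for 19.2% of all members and for 16 of the 22 genes of coagulation and fibrinolysis. F12, which starts the contact pathway of clotting, differed least of the class, at 361, 379, 366, 352 and 369 CPM. A short and a long transcript of lipoproteins had different extremes in mouse 5. Apoc1, a short transcript, stood at 1997, 2007, 2066, 2243 and 3846 CPM and was highest there. Apob, a very long one that encodes the structural protein of low-density lipoprotein, stood at 3921, 3425, 4929, 4047 and 1958 CPM and was lowest there. Without mouse 5 the excess CV was 0.0513 instead of 0.328 for Apoc1, 0.151 instead of 0.299 for Apob and 0.235 instead of 0.355 for C3.

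The 15 transcripts of the mitochondrial genome took 7.996, 7.56, 9.67, 10.1 and 21.9% of counts in mice 1 to 5. They encode subunits of the respiratory chain and ATP synthase and the mitochondrial ribosomal RNAs. All 15 were highest in mouse 5. For mt-Nd1, a subunit of complex I, the levels were 3439, 3144, 4965, 5653 and 15891 CPM, and for the small ribosomal RNA mt-Rnr1 they were 246, 283, 346, 298 and 632 CPM. The 84 nuclear genes of oxidative phosphorylation, whose proteins join them in the same complexes, took 0.856, 0.847, 0.886, 0.947 and 0.954% of counts. Of these 84 genes 74 had their highest CPM in mouse 5, which was highest for 31.5% of all members. Among nuclear members of at least 1 FPKM, it was highest for 76.5% of those under 500 bases of effective length. For those of 500 to 1000 bases it was highest for 66.9%. The part of transcript length in the count of 74 was not tested. The spread between mice was measured as the excess CV, the SD divided by the mean of the CPM of the 5 mice after removal of the part that counting error alone gives. Its median over the mitochondrial transcripts was 0.721, and 0.204 without mouse 5. Over the 84 nuclear genes the median was 0.222, and 0.107 without mouse 5. Without that mouse it was 0.176 instead of 0.601 for mt-Co1, 0.276 instead of 0.799 for mt-Nd1 and 0.138 instead of 0.431 for mt-Rnr1.

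Reads of some mitochondrial genes cannot be assigned with certainty. The counts of mt-Nd4l were the same as those of Gm10222, a gene model on chromosome 1, in every mouse, and all 195 of the 100-base stretches of Gm10222 were also found in mt-Nd4l in the GENCODE M21 transcripts. The level of Gm10222, 1983 ± 1163 FPKM, is therefore uncertain, and so is its excess CV of 0.740, or 0.204 without mouse 5. The same holds in part for other leading transcripts. The share of 100-base stretches that another gene holds was 99.85% for mt-Co3, 99.5% for mt-Co2, 99.5% for mt-Atp6, 97.6% for mt-Nd3, 60.75% for mt-Nd4 and 30.8% for mt-Co1, and 53.2% for Trf, so that the levels and ranks of these genes depend on how reads were divided. No shared stretch was found for mt-Nd1, mt-Cytb or mt-Rnr1. Another 3 pairs of members also had the same counts in all mice, among them Tmem254a and Tmem254b.

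Across all members the median excess CV between mice was 0.164, and the middle 50% of genes lay between 0.0991 and 0.257. The highest mouse was 1.57 times the lowest mouse for the median gene. An excess CV of 0.5 or more, called wide below, was reached by 580 of 12617 members, or 4.6%. That share is the background for the counts of wide genes in each group. Without mouse 5 the median was 0.110 and 485 members were wide. With all 5 mice, wide spread was most frequent among the most abundant genes: 22 of the 82 members at 1000 FPKM or more were wide (26.8%), beside 3.15% to 7.49% in the lower classes of level. That share rested largely on mouse 5, since without it 8 of the 82 were wide (9.76%), beside 2.78% to 6.48% in the lower classes. Of those 22 genes 13 came from the mitochondrial genome and 4 were major urinary proteins, and the other 5 were Hpx, Mt1, Mt2, Gm10222 and Bhmt, which methylates homocysteine. Among the 580 wide members mouse 5 was highest for 38.1%, mouse 2 for 34.3% and mouse 3 lowest for 36.2%.

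**Figure D3:**
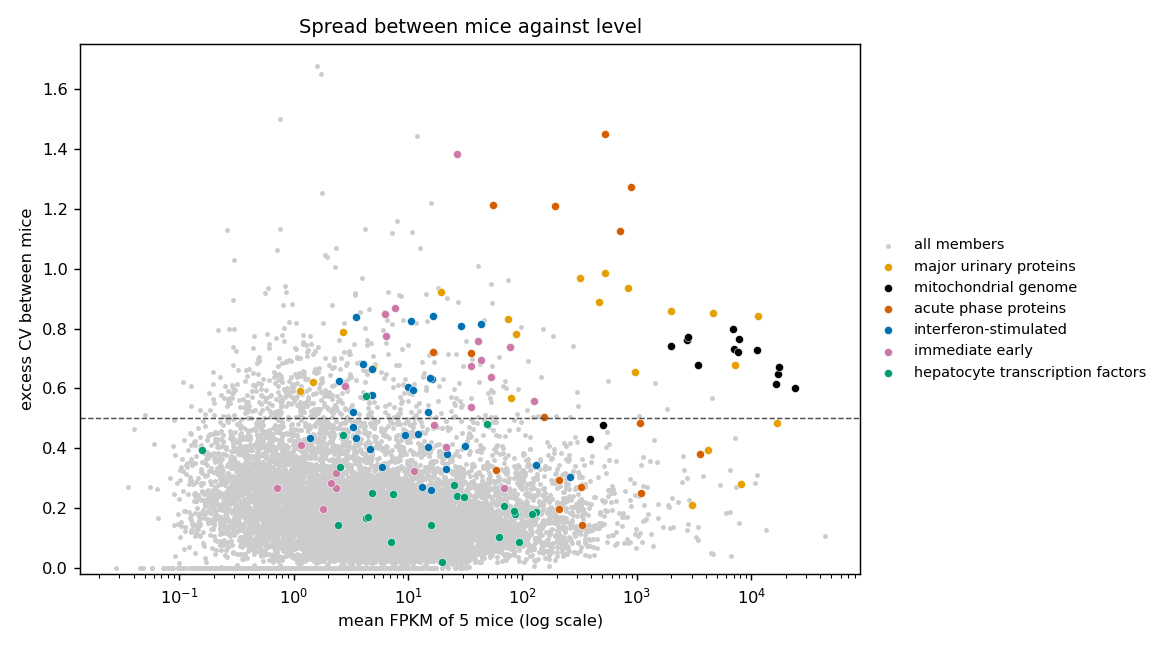
Excess CV between the 5 saline-injected mice (y axis) against mean FPKM (x axis, log scale), with 1 grey point per member and colours for 6 gene groups. The dashed line marks an excess CV of 0.5, above which 580 members lie, among them 17 of 21 major urinary proteins and 13 of 15 mitochondrial transcripts.

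Major urinary proteins had the highest median excess CV of the 7 secreted classes, 0.781, and 17 of the 21 members were wide. Their share of counts was 2.32, 2.60, 6.25, 7.96 and 6.89% in mice 1 to 5, low in mice 1 and 2 and high in the others. Mup10, the most abundant, stood at 6843, 7445, 19384, 19415 and 21917 CPM. Mup7, the next, stood at 2051, 2001, 9238, 18247 and 20578 CPM. Mup17 had the largest excess CV (0.986) of the genes of this class with a mean of 10 CPM or more. It stood at 25.2, 10.1, 493, 1111 and 821 CPM, and Mup15 was close to it at 25.2, 10.8, 931, 1514 and 1428 CPM. Mice 1 and 2 were far below the other 3 animals for all of these genes.

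Not all members of the class had this order. Mup20, the pheromone darcin, which draws females to male scent, was at 2627, 3443, 2063, 2599 and 2172 CPM. Mup21 was at 46.8, 90.9, 17.2, 47.4 and 36.2 CPM. Both were highest in mouse 2. Mup3 stood at 4566, 5585, 7627, 8507 and 9368 CPM, lowest in mice 1 and 2 like Mup10 but with a smaller range. Without mouse 2 the excess CV of Mup20 was 0.123 instead of 0.211.

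Single major urinary protein genes are hard to tell apart. The median share of 100-base stretches that a gene of this class has in common with another gene was 71.9% over the 21 members, with a range from 0% to 100%. It was 97.3% for Mup15, 76.1% for Mup7, 38.8% for Mup20, 4.50% for Mup21 and 2.23% for Mup3. The split of reads among the closest copies, Mup7 and Mup15 among them, is thus uncertain. The values of Mup3 and Mup21 depend little on that split. The gene that shared most stretches with Mup10 (73.4% shared) was Mup22, and with Mup20 it was Mup-ps19. Neither Mup22 nor Mup-ps19 is among the 21 members. How far the summed share of the class depends on such copies was not measured.

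Acute phase proteins are secreted in larger or smaller amounts within hours of inflammation, and 8 of their 16 member genes were wide. Saa1, a serum amyloid A protein carried on lipoproteins, stood at 284, 1499, 113, 101 and 311 CPM in mice 1 to 5. Its neighbour Saa2 stood at 125, 979, 34.0, 35.2 and 204 CPM, the largest excess CV of all members with a mean of 10 CPM or more (1.45). Orm2, an orosomucoid that binds drugs in plasma, stood at 22.2, 118, 9.23, 16.2 and 21.1 CPM. In these genes mouse 2 was far above the rest, and it was highest for 11 of the 16, beside 19.2% of all members.

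Hp, which binds free hemoglobin, was less spread at 4633, 7289, 3021, 3159 and 4357 CPM. Hpx, which binds free heme, stood at 8147, 11552, 3693, 3895 and 3752 CPM, high in mice 1 and 2 and alike in the others. Without mouse 2 the excess CV was 0.820 for Saa2, 0.549 instead of 1.27 for Saa1, 0.343 instead of 1.21 for Orm2 and 0.217 instead of 0.382 for Hp, and the median of the class was 0.266 instead of 0.494. Saa1 and Saa2 share 8.96% and 8.63% of their 100-base stretches with another gene.

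Not every gene of the acute phase class had its peak in mouse 2. Hamp, which encodes hepcidin, the hormone that limits iron uptake, stood at 262, 131, 51.7, 80.2 and 745 CPM. Its neighbour Hamp2 stood at 54.9, 28.7, 29.7, 35.1 and 253 CPM. Both were highest in mouse 5, as was the transferrin receptor Tfrc, at 22.6, 14.6, 19.5, 19.3 and 59.7 CPM. Ftl1, the light chain of the iron store ferritin, was also highest there, at 2983, 2925, 3124, 3067 and 5428 CPM. With mouse 5 left out the excess CV was 0.713 instead of 1.13 for Hamp, 0.333 instead of 1.21 for Hamp2, 0.172 instead of 0.678 for Tfrc and 0.0255 instead of 0.307 for Ftl1. Orm1 (569, 944, 579, 819 and 972 CPM) and the copper-carrying ferroxidase Cp (1221, 1258, 1013, 946 and 926 CPM) differed less between animals.

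Interferon-stimulated genes, which cells switch on to block viruses and intracellular pathogens, were all highest in the same animal. All 30 genes of the list were members, all 30 were highest in mouse 2, which was highest for 19.2% of all members, and 15 were wide, with a median excess CV of 0.497. Irf7, the transcription factor that drives type I interferon production, stood at 116, 158, 25.4, 32.8 and 35.0 CPM. Irgm2 and Igtp encode immunity-related GTPases that act on vacuoles holding intracellular pathogens, and stood at 79.3, 117, 24.2, 30.03 and 12.1 CPM and 78.9, 114, 18.98, 31.1 and 19.2 CPM. Mice 1 and 2 were above the other 3 for each of these genes. The narrowest member of the list was Usp18, which restrains interferon signalling, at 31.4, 35.8, 23.2, 24.0 and 18.4 CPM, with the same 2 animals highest.

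Some interferon-inducible GTPases outside the list were named for their place among the most spread members, so their width describes these genes only. Gvin1 stood at 117, 174, 9.09, 14.9 and 12.1 CPM and Gm4070 at 52.4, 68.6, 5.77, 5.04 and 4.44 CPM. These very large GTPases share 97.8% and 95.6% of their 100-base stretches with another gene, so that their reads cannot be split with certainty. Tgtp1, a T-cell specific GTPase, was at 39.6, 76.6, 6.35, 10.5 and 4.56 CPM and shares 73.1%. Each was highest in mouse 2 and next highest in mouse 1.

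The promoters of the list are shown for its 3 genes of largest excess CV that hold GAAA, any 2 bases and GAAA again, the repeat read by interferon regulatory factors, on either strand. The windows run from 250 bases before to 50 bases after the start site, from RefSeq on GRCm38.p6, and capitals mark the matches. Irgm2 lies at chr11:58214727-58215026 on the plus strand, Igtp at chr11:58199306-58199605 on the plus strand and Oas1a, an enzyme that senses double-stranded RNA, at chr5:120907476-120907775 on the minus strand.
Irgm2: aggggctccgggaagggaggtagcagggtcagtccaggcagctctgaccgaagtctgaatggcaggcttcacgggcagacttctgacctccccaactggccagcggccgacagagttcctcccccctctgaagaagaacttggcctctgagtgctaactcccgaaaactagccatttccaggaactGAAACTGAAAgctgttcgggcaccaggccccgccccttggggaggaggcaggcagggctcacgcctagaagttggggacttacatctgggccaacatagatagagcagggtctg
Igtp: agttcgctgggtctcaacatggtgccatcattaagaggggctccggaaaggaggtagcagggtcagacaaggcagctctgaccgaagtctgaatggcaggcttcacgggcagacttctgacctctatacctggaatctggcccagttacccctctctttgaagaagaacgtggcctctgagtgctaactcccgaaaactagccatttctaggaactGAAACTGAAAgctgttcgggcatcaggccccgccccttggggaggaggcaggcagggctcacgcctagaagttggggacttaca
Oas1a: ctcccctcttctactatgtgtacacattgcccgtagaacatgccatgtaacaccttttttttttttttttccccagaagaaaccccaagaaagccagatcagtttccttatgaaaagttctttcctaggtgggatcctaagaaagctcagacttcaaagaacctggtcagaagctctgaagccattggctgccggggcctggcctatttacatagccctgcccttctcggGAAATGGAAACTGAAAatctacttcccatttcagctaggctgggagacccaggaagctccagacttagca
The first match began 64, 34 and 20 bases before the start site, and Oas1a held 2 matches that overlap. Of the 24 listed genes with a RefSeq promoter window 14 held the repeat at least once, or 58.3%, beside 3.99% of all 27025 genes with a window. A match describes the sequence and is not evidence of binding in these livers.

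Macrophage markers were mostly highest and endothelial markers lowest in mouse 2. Of 13 Kupffer cell and macrophage markers 12 were highest in mouse 2 and 10 lowest in mouse 3, beside 19.2% and 21.7% of all members. The summed level of these markers was 731, 876, 355, 463 and 462 CPM in mice 1 to 5. Marco, a scavenger receptor for bacteria, stood at 17.9, 23.8, 2.51, 7.76 and 6.58 CPM. Clec4f, a lectin of Kupffer cells, stood at 107, 135, 45.5, 80.6 and 105 CPM, with an excess CV of 0.354, or 0.208 without mouse 3. Both were highest in mouse 2 and lowest in mouse 3. Cd163, the receptor for hemoglobin and haptoglobin complexes, was the exception, at 6.23, 7.81, 7.87, 12.4 and 16.3 CPM.

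All 14 sinusoidal endothelial markers were lowest in mouse 2 and 11 were highest in mouse 3, beside 17.4% and 21.6% of all members. The summed level of these markers was 151, 106, 233, 168 and 210.0 CPM. Lyve1, a hyaluronan receptor, was the widest of them at 4.48, 2.66, 13.3, 6.34 and 7.74 CPM. Cdh5, the cadherin of endothelial junctions, barely differed at 11.6, 9.98, 10.8, 10.05 and 10.6 CPM, and its small excess CV of 0.0338 was 0 without mouse 1 and 0.0510 without mouse 5. Mouse 1 was highest for 13.1% of all members and for 9 of 14 stellate cell and fibroblast markers. Acta2, the smooth muscle actin of activated stellate cells and vessel walls, was the wide one among them, at 7.78, 0.580, 5.54, 0.906 and 0.924 CPM, while Dcn, a matrix proteoglycan, was level at 104, 79.1, 84.7, 81.4 and 98.6 CPM. In bulk liver, fewer cells of a type and less RNA per cell cannot be told apart. The summed macrophage markers and the interferon-stimulated genes (1539.7, 2007, 833, 1011 and 757 CPM) were both highest in mouse 2 and next highest in mouse 1, and the part of the former in the latter was not tested.

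**Figure D4:**
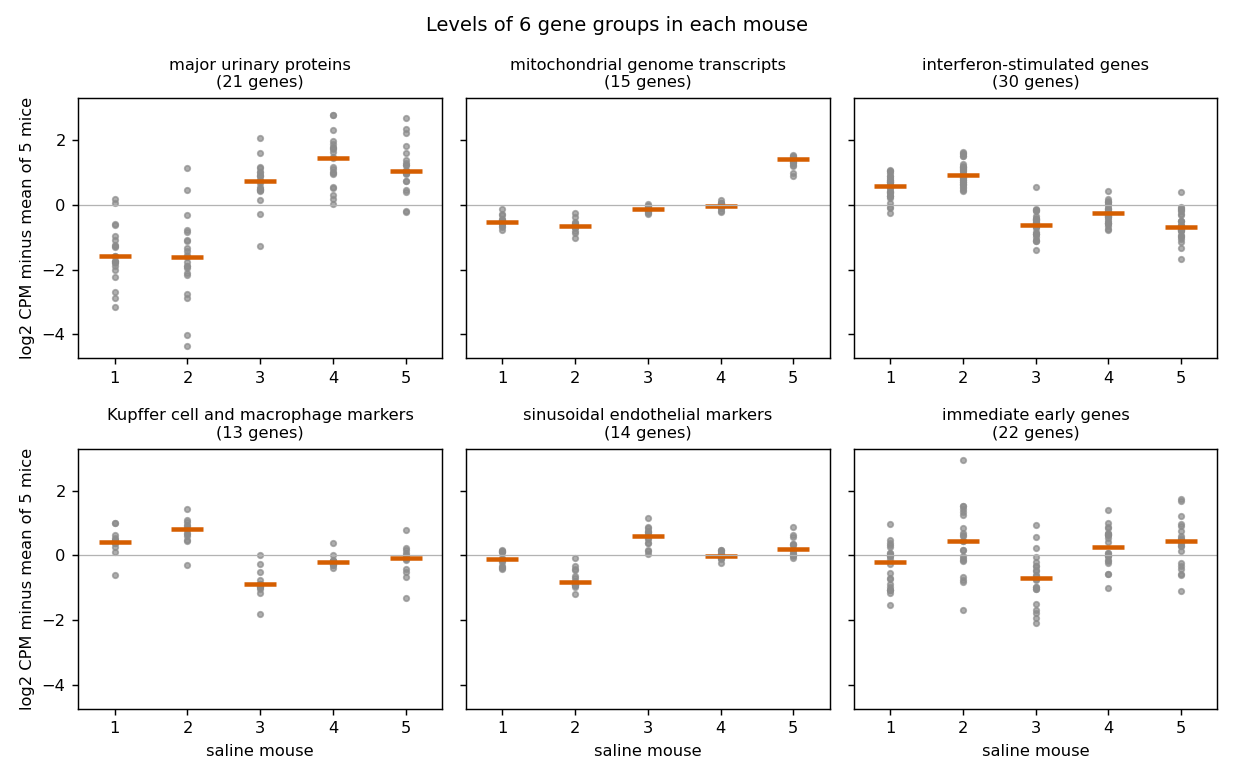
Log2 CPM of each gene minus its mean over the 5 saline-injected mice (y axis) in mice 1 to 5 (x axis) for 6 gene groups, with 1 grey point per gene and an orange bar at the median of the group. Major urinary proteins lie low in mice 1 and 2, mitochondrial transcripts high in mouse 5, interferon-stimulated genes and macrophage markers high in mice 1 and 2, and endothelial markers low in mouse 2.

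Immediate early genes, which switch on within minutes of a stimulus and need no new protein, had different highest mice. Of 29 listed genes 22 were members and 12 were wide, with a median excess CV of 0.548. Fos, a component of the AP-1 transcription factor, stood at 7.25, 161, 6.52, 55.8 and 9.83 CPM. Its partner Jun stood at 40.9, 205, 30.5, 153 and 121 CPM, and Egr1, a growth-induced transcription factor, at 198, 449.9, 39.6, 334 and 109 CPM. These genes were high in mice 2 and 4 and lowest in mouse 3. Zfp36, which speeds the decay of cytokine mRNAs, was likewise high in mice 2 and 4, at 104, 343, 139, 351 and 143 CPM.

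Mouse 2 was highest for 7 of the 22, mouse 5 for 11 and mouse 4 for 3, beside 19.2%, 31.5% and 14.6% of all members. Gadd45b, a stress sensor, stood at 3.93, 4.79, 4.90, 11.8 and 24.5 CPM, and Atf3, a stress-induced repressor, at 4.24, 13.8, 2.34, 14.1 and 30 CPM, both highest in mouse 5. The excess CV of Gadd45b was 0.870, or 0.569 without mouse 5. Dusp1, a phosphatase that switches off stress kinases, varied less, at 82.9, 134, 96.0, 162 and 146 CPM. The summed level of the list was 765, 1968, 595, 1604 and 1191 CPM.

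Genes of fasting and glucocorticoid action had a median excess CV of 0.506, with 18 of 35 wide. Of these 35 genes 20 were lowest in mouse 2 and 11 highest in mouse 3, beside 17.4% and 21.6% of all members. Cyp4a10 and Cyp4a14, fatty acid hydroxylases that follow the nuclear receptor PPARα, stood at 86.6, 66.0, 757, 537 and 498 CPM and 129, 101, 842, 417 and 381 CPM. Acot1, a thioesterase that follows the same receptor, stood at 9.77, 7.20, 43.0, 39.0 and 17.8 CPM. All 3 were low in mice 1 and 2 and highest in mouse 3. The glucocorticoid target Fkbp5, a chaperone of the glucocorticoid receptor, stood at 45.1, 34.6, 144, 137 and 69.6 CPM, and the transcription factor Zbtb16 at 10.4, 3.08, 23.5, 36.2 and 12.8 CPM. Both were lowest in mouse 2 and high in mice 3 and 4. The metallothionein Mt1, which binds zinc and copper, stood at 349, 601, 1110.2, 892 and 1609 CPM, and Mt2 at 271, 382, 957, 749 and 1439.5 CPM, lowest in mouse 1.

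Genes of gluconeogenesis and of hormones released in fasting did not share that order. Pck1, which commits carbon to glucose synthesis, was close in 4 mice and low in mouse 2, at 3401, 1875, 3039, 3358 and 3202 CPM, and its excess CV of 0.212 was 0.0510 without mouse 2. Igfbp1, a binding protein that limits insulin-like growth factor in fasting, showed the same, at 468, 140.1, 464, 379 and 434 CPM, with an excess CV of 0.364, or 0.0939 without mouse 2. G6pc, the catalytic subunit of glucose-6-phosphatase, was instead highest in mouse 1, at 1107, 510.2, 565, 494 and 305 CPM, and its excess CV of 0.506 was 0.241 without mouse 1. Fgf21, a hormone released by the liver in fasting and stress, was highest in mouse 2, at 2.86, 17.3, 1.79, 6.38 and 1.35 CPM, with an excess CV of 1.12, or 0.731 without mouse 2. Igf1, the growth factor that growth hormone induces, was steady at 497, 414, 452, 565 and 559 CPM.

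Genes of the fed state did not share 1 order. Of the 25 genes of feeding and of the lipogenic SREBP factors 10 were highest in mouse 5 and 8 in mouse 4. Those mice were highest for 31.5% and 14.6% of all members. Among the 25 genes 5 were wide, and the median excess CV was 0.378. Thrsp, which follows feeding and thyroid hormone, stood at 312, 82.1, 245, 359 and 795 CPM. Scd1, the desaturase that makes oleic acid, stood at 5637, 3723, 6175, 6465 and 10007 CPM. Both were lowest in mouse 2 and highest in mouse 5. Pnpla3, a lipid droplet protein, stood at 2.06, 1.46, 0.606, 1.02 and 14.3 CPM, again with mouse 5 highest. Without mouse 5 the excess CV was 0.462 instead of 1.5 for Pnpla3, 0.485 instead of 0.740 for Thrsp and 0.222 instead of 0.356 for Scd1. Srebf1, the factor that drives lipogenesis, had another order at 270.0, 172, 92.2, 125 and 215 CPM. The cholesterol synthesis genes Hmgcs1 (90.5, 161, 99.3, 286 and 239 CPM) and Sqle (26.4, 44.1, 29.4, 83.3 and 55.6 CPM) were highest in mouse 4.

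Clock genes keep time by a transcriptional loop of about a day. Of the 15 core members 4 were wide (26.7%), beside 4.6% of all members, with a median excess CV of 0.290. The activator Arntl was low in all mice, at 1.62, 3.30, 3.06, 3.59 and 1.44 CPM. The repressor Cry2 was at 34.0, 32.0, 29.4, 27.1 and 32.1 CPM with an excess CV of 0.0814. Per1 and Per2, light-responsive repressors of the loop, stood at 50.9, 19.7, 32.4, 22.7 and 81.2 CPM and 19.4, 13.1, 10.9, 7.57 and 34.7 CPM, both highest in mouse 5. Ciart, a repressor of the clock, was the widest of the list at 16.3, 4.21, 11.5, 10.2 and 57.0 CPM, and its excess CV of 1.07 was 0.470 without mouse 5, where that of Per2 was 0.392 instead of 0.626. The labels give no clock time of collection for a single animal. The promoter of Ciart is shown because it is the most spread clock gene with the E-box letters CACGTG, which reads the same on both strands and is the site of the clock activators, marked in capitals (RefSeq, GRCm38.p6, chr3:95882179-95882478, minus strand).
Ciart: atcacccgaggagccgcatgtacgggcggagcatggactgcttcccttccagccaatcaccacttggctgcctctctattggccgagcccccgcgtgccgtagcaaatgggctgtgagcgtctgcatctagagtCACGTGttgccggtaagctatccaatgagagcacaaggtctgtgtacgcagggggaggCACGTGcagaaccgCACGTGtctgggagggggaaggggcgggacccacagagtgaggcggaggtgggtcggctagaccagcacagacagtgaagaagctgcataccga
It held the letters 3 times, and 4 of the 11 listed clock genes with a RefSeq window held them at least once, beside 8.09% of all genes with a window.

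Sex-biased genes of the liver, which follow the pattern of growth hormone release, were spread in both directions. Of 29 genes with higher levels in female than male liver 15 were members and 4 had no count in any mouse. Of the 15 members 9 were highest in mouse 3 and 8 lowest in mouse 2, beside 21.6% and 17.4% of all members. The list summed to 771, 576, 2332, 1581 and 1583 CPM. Cyp2a4, a steroid hydroxylase of this list, had another order at 213, 98.0, 24.7, 16.5 and 65.6 CPM, highest in mouse 1. Its close copy Cyp2a5, which oxidizes coumarin, stood at 558, 318, 507, 433 and 1228 CPM, highest in mouse 5, with an excess CV of 0.588, or 0.231 without mouse 5. These 2 genes share 11.2% and 12.1% of their 100-base stretches with another gene. Cyp17a1, an enzyme of androgen synthesis, was highest in mouse 3, at 17.0, 14.1, 49.7, 13.6 and 21.8 CPM, and its excess CV of 0.651 was 0.222 without mouse 3. Of the 27 members with higher levels in males 10 were wide, among them Elovl3, a fatty acid elongase (28.4, 36.3, 89.8, 165 and 80.0 CPM). Mouse 4 was highest for 15 of the 27, beside 14.6% of all members. The median excess CV was 0.354 for the male-biased and 0.651 for the female-biased list, and that of the female-biased list was 0.424 when the minimum was set to 50 counts.

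Hepatocytes differ along the path of the blood, and genes of the pericentral zone, next to the outflow vein, summed to 8531, 8059, 13854, 12669 and 12602 CPM, low in mice 1 and 2. Glul, which binds ammonia as glutamine, stood at 383, 337, 706, 728 and 582 CPM. Cyp2e1 stood at 3861, 3930.2, 6544, 5575 and 5312 CPM and Cyp2c29, another pericentral oxidase, at 612, 577, 1335, 1333 and 805 CPM. All 3 were lower in mice 1 and 2 than in the others. Genes of the periportal zone, next to the inflow, summed to 20793, 15411, 18806, 19360.1 and 18715 CPM, lowest in mouse 2. Of 19 pericentral genes 1 was wide (5.26%), and of 19 periportal genes 2 (10.5%), beside 4.6% of all members.

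Enzymes of the urea cycle, which turns ammonia into urea, had different extremes in mouse 5. Ass1 stood at 2773, 2203, 2533, 3148 and 3005 CPM. Cps1, which makes the first intermediate and has a long transcript, stood at 3738, 2759, 4086, 3326 and 1279.6 CPM, lowest in mouse 5. Asl, a shorter one, stood at 446, 312, 427, 482 and 758 CPM, highest in mouse 5. Leaving out mouse 5 gave an excess CV of 0.163 instead of 0.362 for Cps1 and 0.174 instead of 0.341 for Asl.

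Of 26 genes that respond to foreign compounds 19 were lowest in mouse 2 and 17 highest in mouse 5, beside 17.4% and 31.5% of all members. Among the 26 genes 6 were wide (23.1%), beside 4.6% of all members. Cyp3a11 stood at 4288, 2853, 7459, 7844 and 7227 CPM, lowest in mouse 2, and its excess CV of 0.375 was 0.243 without mouse 2. Gstm2, a glutathione transferase, stood at 54.9, 35.6, 55.7, 89.0 and 194 CPM, with an excess CV of 0.740, or 0.373 without mouse 5. Cyp3a13 was the steadiest of the list at 195, 205, 199.7, 172 and 176 CPM. Of 13 members among p53 targets 2 were wide (15.4%), beside 4.6% of all members. Cdkn1a, the inhibitor of cyclin-dependent kinases, stood at 2.45, 0.916, 18.2, 24.2 and 12.6 CPM, and Gdf15, a stress hormone, at 17.8, 33.6, 24.7, 92.1 and 86.6 CPM. Mdm2, which degrades p53, was nearly level at 26.8, 31.0, 27.9, 26.8 and 29.4 CPM, with an excess CV of 0.0568, or 0.0318 without mouse 2.

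Groups of translation, protein folding and coagulation had median excess CVs below the 0.164 of all members. The median was 0.123 for 65 translation factors, 0.131 for 27 ER chaperones, 0.138 for 21 enzymes of the tricarboxylic acid cycle, 0.142 for 22 coagulation genes and 0.144 for 50 proteasome and ubiquitin genes. None of these genes was wide, beside 4.6% of all members, though at that share each group taken alone would hold few. Without mouse 5 the median was 0.0694 instead of 0.123 for translation factors, 0.0692 instead of 0.144 for the proteasome and 0.0623 instead of 0.163 for the 80 ribosomal proteins. The transcription factors that set hepatocyte identity had a median of 0.190, and of 23 only Cebpd was wide. Hnf4a, a master regulator of hepatocytes, stood at 508, 502, 735, 601 and 481 CPM, highest in mouse 3, and its excess CV of 0.187 was 0.102 without mouse 3. Nr2f6, a nuclear receptor, was level at 39.995, 43.4, 41.1, 40.3 and 41.3 CPM, with an excess CV of 0.0196, or 0 without mouse 2. Cebpb, which acts in the acute phase response, was highest in mouse 5, at 53.8, 40.6, 72.8, 66.4 and 132 CPM, with an excess CV of 0.481, or 0.240 without mouse 5.

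Of 15 genes commonly used as references Tfrc alone was wide. Ywhaz, a 14-3-3 adaptor, stood at 95.9, 95.2, 103, 89.8 and 104 CPM, with an excess CV of 0.0581. Gapdh, the glycolytic enzyme, stood at 1189.8, 1067, 1130.2, 1519 and 2261 CPM, highest in mouse 5, and its excess CV of 0.345 was 0.162 without mouse 5. Actb, cytoplasmic actin, stood at 374, 501, 309.9, 541 and 512 CPM, lowest in mouse 3.

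The smallest CVs among members of at least 10 CPM belonged to 4 genes of unlike function. Nipsnap3b stood at 47.5, 47.0, 47.6, 46.4 and 47.3 CPM, and the lysosomal protease Ctsd at 256, 257, 259, 264 and 259 CPM. The ribosomal scaffold Rack1 stood at 213, 216, 214, 217 and 220.3 CPM and the condensin subunit Ncaph2 at 48.9, 48.0, 48.7, 49.7 and 48.4 CPM. That ranking rests on the scaling, since with total counts alone their excess CVs were 0.106, 0.102, 0.0980 and 0.103. The excess CV of Ctsd was 0.00599, and with 1 mouse left out it lay between 0 (without mouse 4 or 5) and 0.00920 (without mouse 3). That of Rack1 was 0.00583, and lay between 0 (without mouse 5) and 0.00850 (without mouse 2), with 0.00351 without mouse 1 and 0.00377 without mouse 4.

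**Figure D5:**
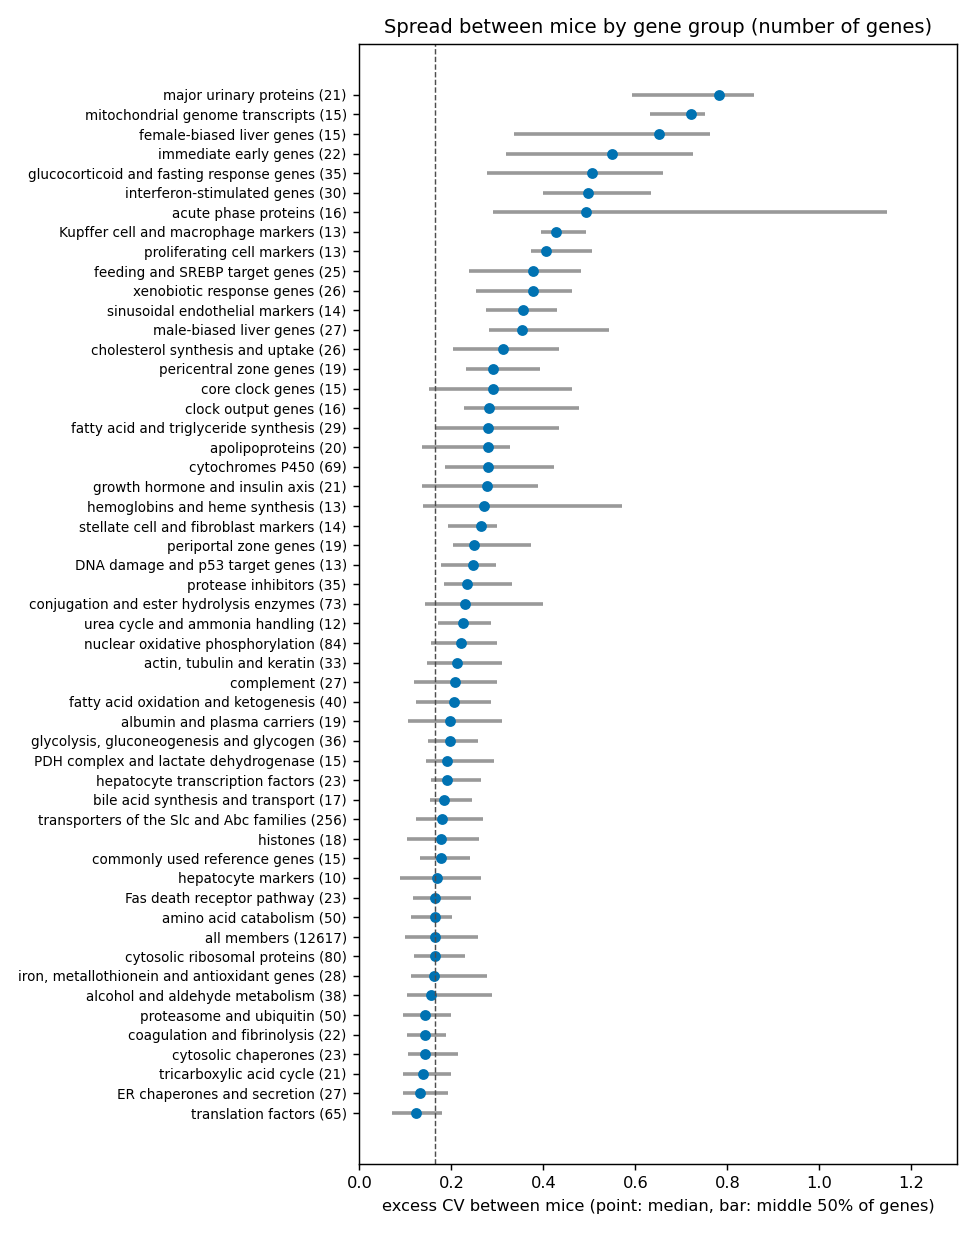
Median excess CV between the 5 saline-injected mice (point) and the range of the middle 50% of genes (bar) for each gene group of at least 10 members (y axis, number of members in brackets), with the median of all members as a dashed line at 0.164. Major urinary proteins and mitochondrial transcripts lie at the top and translation factors at the bottom.

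The Fas pathway, by which the receptor named in the other arm of the study kills cells, was expressed at baseline with a spread like that of all members. Of 24 listed genes 23 were members and none was wide, with a median excess CV of 0.165 beside 0.164 for all members. The receptor Fas stood at 12.9, 15.7, 11.9, 13.4 and 15.5 CPM in mice 1 to 5 and at 10.1 ± 1.46 FPKM. The initiator Casp8 stood at 21.2, 21.8, 24.2, 27.7 and 33.1 CPM, with an excess CV of 0.188, or 0.115 without mouse 5. Bid, which carries the signal to mitochondria, stood at 15.2, 16.8, 11.2, 10.1 and 8.77 CPM. Of these 3 genes the receptor differed least between animals, with an excess CV of 0.112.

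Xiap, the caspase inhibitor, stood at 89.6, 85.9, 111, 92.8 and 82.3 CPM, with an excess CV of 0.121, or 0.0490 without mouse 3. The narrowest member was Bak1, a pore-forming protein of the mitochondrial outer membrane, at 9.53, 10.6, 9.49, 9.06 and 9.95 CPM, with an excess CV of 0.0214, and between 0 and 0.0378 when 1 mouse was left out, 0 being reached without mouse 2 and without mouse 4. Ripk3, a kinase of necroptosis, did not reach 10 counts in every mouse. Among 15 members for the pyruvate dehydrogenase complex, which feeds pyruvate into the tricarboxylic acid cycle, and for lactate dehydrogenase, only Pdk4, a kinase that shuts the complex off, was wide. Pdha1, a subunit of the complex, stood at 33.0 ± 5.27 FPKM and Ldha at 429 ± 52.8 FPKM.

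Blood and other cells left small traces. The globin gene Hba-a1 stood at 7.66, 69.1, 33.5, 21.9 and 72.9 CPM and Hbb-bs at 12.3, 91.6, 47.1, 34.3 and 54.8 CPM. Both were lowest in mouse 1, and 63.3% and 49.7% of their 100-base stretches are shared with another globin gene. Summed markers of neutrophils ran from 3.47 to 8.56 CPM, of T and NK cells from 3.20 to 12.2 CPM and of B and plasma cells from 4.18 to 15.1 CPM. Of 14 exocrine pancreas markers 10 had no count in any mouse, and 2 were members. Proliferation markers summed to 36.5 to 86.8 CPM, with 12 of 13 members lowest in mouse 3, beside 21.7% of all members. The median excess CV of these markers, 0.405, was 0.233 without mouse 3. Cholangiocyte markers summed to 36.8 to 51.2 CPM, and Krt7 and Krt19, keratins of bile ducts, were not members.

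Several other genes were among the most spread. Fbf1, a protein of the ciliary base, stood at 20.4, 6.65, 36.8, 51.9 and 193 CPM. Pltp, the phospholipid transfer protein of plasma, stood at 17.7, 20.2, 20.1, 20.96 and 90.9 CPM, and the RNA Snhg11 at 4.44, 3.66, 3.89, 6.86 and 34.5 CPM. All were highest in mouse 5, and without it the excess CV was 0.675 instead of 1.22 for Fbf1, 0.0543 instead of 0.937 for Pltp and 0.298 instead of 1.25 for Snhg11. G0s2, an inhibitor of fat breakdown, was highest in mouse 4, at 12.8, 71.4, 18.3, 152 and 40.7 CPM. Ddit4, an inhibitor of mTOR signalling that follows stress hormones, stood at 22.7, 2.38, 60.2, 18.1 and 85.2 CPM, lowest in mouse 2. Rps12, a ribosomal protein gene with processed copies in the genome, ran from 2.84 to 59.1 CPM, with an excess CV of 0.884, or 0.586 without mouse 5, and 16.8% of its 100-base stretches are shared.

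Long non-coding RNAs made up 417 members and 0.425 ± 0.0333% of counts. Their median level was 0.988 FPKM and their median excess CV 0.238. Malat1, a nuclear RNA, stood at 87.4 ± 22.9 FPKM, Gas5, a host of small nucleolar RNAs, at 80.2 ± 9.71 FPKM, and Gm26880, the most abundant of them and highest in mouse 5, at 407, 282, 799.6, 739 and 1465 CPM. Of 156 small nuclear, nucleolar and related RNAs 135 had no count in any mouse.

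The minimum of 10 counts admitted 148 genes whose lowest mouse was exactly at it. Gm4787, with 15, 11, 10, 10 and 14 counts, and Zfp422-ps, with 11, 10, 14, 11 and 13, lay just inside. Another 149 genes missed it with 9 counts in their lowest mouse. B3gnt2, with 174, 92, 168, 92 and 9 counts, and Lst1, with 85, 96, 9, 26 and 69, lay just outside, each kept out by a single animal.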

How the data were processed

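RNA of whole liver was sequenced by the authors with 2 × 100 base reads after a TruSeq library preparation, and the deposited values per gene are expected counts and FPKM that the authors estimated with RSEM 1.2.19. The mouse annotation and genome build are not given in the sources used here. Only the 5 saline-injected mice of 10 were used, with 25965699 to 62097636 counts each. Expected counts were whole numbers as read, and genes with at least 10 in each mouse were kept. CPM were scaled by TMM (edgeR 4.0.16), and spread was given as the CV less its counting part. That calculation was tested on simulated data without any trend with transcript length. Genes made with a spread of 0.15 had a median excess CV of 0.135. Genes made with 0.8 had a root mean square excess CV of 0.729, and 80% of them were wide. Levels of single named genes were ranked by FPKM, which are divided by transcript length. Shares of counts and CPM, also given for genes and classes, are not, and longer transcripts take a larger share of them. With 1 group no p-value was computed. Each mouse was left out in turn, and DESeq2 1.42.0 size factors, total counts, FPKM, edgeR dispersions and other minimums were tried. Symbols matched 37606 identifiers through the RefSeq and GENCODE M21 tables. The antibody group was not analysed here, and a few listed genes are not reported here.

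The members, function classes and gene lists were chosen with earlier results of these data known. Genes named are the 25 highest by FPKM, the most and least spread members, the extremes of each list, all members of short lists and the genes at the minimum, and further list members were chosen after their values were seen. The shared 100-base stretches were counted in GENCODE M21 transcripts, and a stretch counts as shared where another gene holds the same 100 bases.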

Additional observations from a re-analysis of the deposited data

Results flagged for a closer look

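Of 220 values over the 5 mice, 28 had 1 animal set apart from the other 4 by a gap of more than 0.71 of the whole range, the critical value of Dixon's test for 5 samples, which chance alone exceeds for about 1 in 20 groups. Of all 12617 members 1152 (9.13%) met the same condition, and in 918 of them mouse 5 was the animal apart. Mouse 5 was apart for the share of mitochondrial transcripts (21.9% of counts), for summed neutrophil markers (8.56 CPM) and, in CPM, for mt-Co1 (77384), mt-Nd1 (15891), mt-Rnr1 (632), mt-Nd4l and Gm10222 (1156 each), Ttr (9269.7), Apoe (14472), Apoa2 (7249), Apoc1 (3846), Cyp2a5 (1228), Hamp2 (253), Ftl1 (5428), Pnpla3 (14.3), Ciart (57.0), Tfrc (59.7), Fbf1 (193), Snhg11 (34.5) and Pltp (90.9). Mouse 2 was apart and high for Saa1 (1499), Saa2 (979) and Orm2 (118). It was apart and low for Pck1 (1875), Igfbp1 (140.1), summed clock output genes (1179) and the summed growth hormone and insulin axis (2227). Mouse 3 was apart and high for Cyp17a1 (49.7).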

How the results depend on the processing

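No paired analysis was possible because only 1 group was analysed. Leaving mitochondrial transcripts out of the total changed the mean shares of counts of these classes beyond the SD between mice: albumin and carriers 16.3%, apolipoproteins 4.10%, conjugation 2.61%, amino acid catabolism 2.55%, glycolysis 1.78%, transporters 1.70%, iron and antioxidant genes 1.58%, alcohol and aldehyde metabolism 1.31%, ribosomal proteins 1.26%, nuclear oxidative phosphorylation 1.02%, proteasome 0.483%, tricarboxylic acid cycle 0.390%, hemoglobins and heme 0.100% and histones 0.0915%. The leading gene then took 9.86%, the leading 100 genes 48.8% and the leading 1000 genes 75.5%. The number of wide genes was 299 with a minimum of 50 counts and 3525 with no minimum, against 580, which follows from the low genes removed or added. It was 576 with DESeq2 size factors, 619 with total counts, 626 with FPKM and 600 with edgeR dispersions, and 485 to 733 when a mouse was left out, and the median excess CV was then 0.110 to 0.173. Leaving out 1 mouse moved the excess CV of a named nuclear gene by over 1.5 times in 68 cases and by less in 707. For 155 such genes it moved as much for 34 with FPKM, 33 with total counts, 6 with edgeR dispersions and 0 with DESeq2 size factors, so that part of the printed spreads depends on the scaling. Genes with very few counts, small differences between mice and near-identical gene copies are beyond what 5 libraries of this depth resolve.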
